A study of Mus musculus with 12 samples.

Results

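The 32 genes described here carry fatty acids from the cytosol through activation and transport to β-oxidation in mitochondria and peroxisomes. They were chosen by their place in the pathway, though with earlier results of these data known. The assay was ATAC-seq, where Tn5 inserts adapters into open DNA, so the values are the accessibility of chromatin and not transcript levels. A gene's locus value is the sum of counts over the called regions that overlap its span in the mm10 gene table or the 5000 bp on either side. All 32 genes had at least 1 region and all 32 passed the filter on low counts, out of 16300 protein-coding genes with a region, of which 15540 were tested. The cells were macrophages sorted from mouse brain tumours, and all animals carried the genotype Ink4a/ArfKO, PDGFB, in which tumours start from Nestin-positive progenitors made to express platelet-derived growth factor B. The 4 groups were monocyte-derived macrophages (MDM) and microglia (MG) without lipid load, and their lipid-laden counterparts (LL-MDM and LL-MG), with 3 libraries each. No group was free of tumour. The sources used here do not give the animals' age, the sorting gates or the way lipid load was read.

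Long-chain fatty acids are joined to coenzyme A by acyl-CoA synthetases, passed across the mitochondrial membranes as carnitine esters, and shortened in repeated rounds of dehydrogenation, hydration, a second dehydrogenation and thiolysis. Electrons from the first step reach the respiratory chain through the electron transfer flavoprotein, and very long or branched chains are first shortened in peroxisomes. Macrophages that take up lipid-rich debris such as myelin can store the fatty acids as droplets, export lipid, or oxidise it, and the oxidation genes are known targets of PPAR and ERR nuclear receptors with their PGC-1 coactivators.

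Region totals ran from 1162969 counts (LL-MDM 1) to 18938222 (MDM 2), and the MDM libraries were the deepest group. Levels below are CPM, counts relative to the library's total after TMM scaling, over loci for a locus and over regions for a region. Each difference is on the log2 scale with its standard error (±), from edgeR fits over all loci or all regions, and an adjusted p under 0.05 was required. Groups were taken from the column names of the count table. The sample titles name the same group for 4 of the 12 libraries and another group for 8, so each result rests on the library names. Grouped by title, edgeR called 0 members in MG against MDM (0 at an unadjusted p under 0.05), 0 in LL-MG against LL-MDM (0), 1 in LL-MDM against MDM (7) and 0 in LL-MG against MG (5). By the library names the microglia regulator Sall1 stood at 0.488 to 1.07 CPM in MDM, 6.19 to 11.9 in LL-MDM, 39.8 to 74.2 in MG and 66.01 to 88.0 in LL-MG. Of the 6 microglia markers, 4 were higher in MG than in MDM and 5 in LL-MG than in LL-MDM. Among them Tmem119 read 69.1 to 81.0 CPM in LL-MDM, above both MG (37.2 to 51.9) and LL-MG (54.3 to 60.1). The integrin gene Itga4, a mark of monocyte origin, was higher in both MDM groups, with 112 to 138 CPM in MDM, 80.4 to 85.2 in LL-MDM, 39.9 to 51.2 in MG and 42.1 to 57.2 in LL-MG. Of the 6 monocyte-derived markers, 5 were lower in MG than in MDM and 5 in LL-MG than in LL-MDM. The exception in MG was the chemokine receptor gene Ccr2, at 22.6 to 27.6 CPM in MDM but 10.2, 42.8 and 28.5 in MG (0.21, not called). In these bulk samples, more cells with an open locus and a wider opening in each cell cannot be told apart. The titles number 3 mice for the 12 libraries, so several libraries may share an animal, and a p-value here reflects only how far these libraries spread, part of which may be technical. By library name only 1 of the 3 numbers holds both lipid states. Should the numbers hold, animal and lipid load could not be fully told apart.

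In MG against MDM, 11 members were higher and 4 were lower, among all loci 20.4% higher and 20.6% lower. The members' share was above that background among gains (34.4%) and below it among losses (12.5%). In LL-MG against LL-MDM 5 were higher and 0 lower by edgeR (1 lower at an unadjusted p under 0.05, and 0 by DESeq2), where 12.1% of all loci were higher and 8.44% lower. In LL-MDM against MDM 6 were higher and 0 lower (2 lower at an unadjusted p under 0.05, and 0 by DESeq2), beside 11.7% and 12.2% of all loci. LL-MG against MG gave 3 higher and 1 lower, beside 9.81% and 8.64%, which is close to the background. The lipid-load difference itself differed between the lineages for 2 members, both lower in microglia, and 0 were higher (4 at an unadjusted p under 0.05, and 0 by DESeq2). For that interaction, 5.88% of all loci were higher and 2.96% lower. Between the groups 18 of the 32 members passed the test in at least 1 of the 4 comparisons and 14 in none. The same share over all loci was not computed, so this count has no background and says nothing particular of the members. These comparisons share libraries, so their counts are not independent. Single libraries moved some counts. In LL-MG against MG the 3 gains became 6 without MG 1, 1 without MG 2 or LL-MG 2, and 0 without MG 3, LL-MG 1 or LL-MG 3, and its 1 loss became 3 without MG 1. In LL-MG against LL-MDM the 5 gains became 3 without LL-MDM 1, LL-MDM 2 or LL-MG 1, 2 without LL-MG 2, and 1 without LL-MDM 3 or LL-MG 3. The 6 gains in LL-MDM against MDM became 10 without MG 1 or MG 2, and the 4 losses in MG against MDM became 2 without MG 2 or MG 3. Without MG 1 there were also 2 gains in the interaction and 1 loss in LL-MG against LL-MDM.

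**Figure D1:**
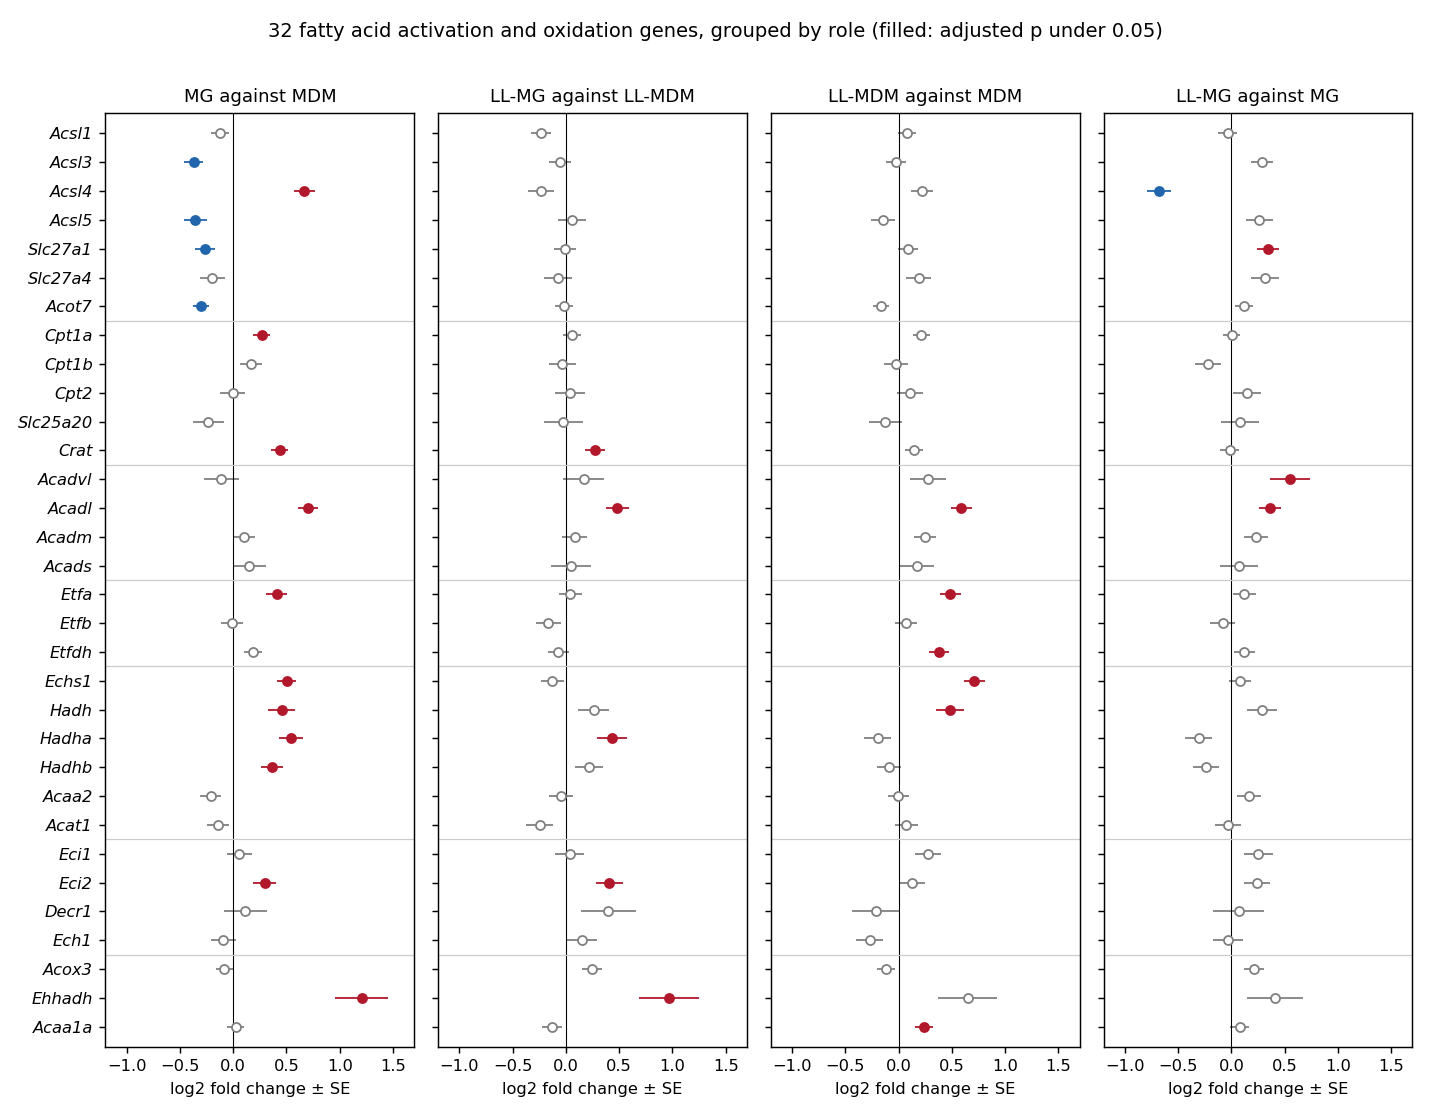
Log2 fold change ± standard error of the 32 loci in the 4 comparisons, with genes on the vertical axis grouped by role from activation (top) to peroxisomal oxidation (bottom) and filled points past the edgeR test. In MG against MDM 4 of the 7 activation genes lie left of 0 with filled points and 4 of the 6 genes of hydration and later steps lie right, and Acadl is filled in all 4 panels.

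The members' median log2 fold change was 0.08 in MG against MDM, 0.04 in LL-MG against LL-MDM, 0.12 in LL-MDM against MDM and 0.12 in LL-MG against MG. The median over all loci lay between -0.01 and 0.02 in the same 4 comparisons. Summed over the 166 distinct regions of the 32 loci, accessibility was 1903 to 1977 CPM in MDM, 2089 to 2176 in LL-MDM, 2024 to 2092 in MG and 2140 to 2189 in LL-MG. With this TMM scaling the lipid-laden libraries lay above the unladen ones of their lineage in each case. In microglia that separation depends on the scaling, since MG and LL-MG overlap when counts are taken relative to library totals alone. Scaling to library totals alone moved the balance over all loci, to 26.8% higher and 16.4% lower in MG against MDM to 7.28% and 12.2% in LL-MG against MG, and to 4.3% and 5.44% for the interaction. The members' counts under that scaling stayed within 1.5 times of those given.

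Acadl, which encodes the long-chain acyl-CoA dehydrogenase that starts each round of oxidation, was the only member past the test in all 4 comparisons. Its locus (chromosome 1, 66830839 to 66863309, no counts shared with a neighbour) read 28.9, 30.8 and 30.2 CPM in the MDM libraries and 46.0, 44.5 and 45.6 in LL-MDM. It read 54.0, 44.5 and 49.9 CPM in MG and 64.2, 60.1 and 64.4 in LL-MG. Every lipid-laden library lay above every unladen library of the same lineage, and microglia lay above MDM within each lipid state. The difference was 0.59 ± 0.10 in LL-MDM against MDM (edgeR, adjusted p = 0.000259) and 0.70 ± 0.09 in MG against MDM (edgeR, adjusted p = 3.77e-06). It was 0.48 ± 0.11 in LL-MG against LL-MDM (edgeR, adjusted p = 0.00273) and 0.37 ± 0.10 in LL-MG against MG (edgeR, adjusted p = 0.0203). The first 3 calls were kept without any 1 library, whereas that in LL-MG against MG was lost without MG 2 (0.27), MG 3 (0.36), LL-MG 1 (0.35) or LL-MG 3 (0.35). With the titles' mouse number as a block, both lipid-load calls, in LL-MDM against MDM and in LL-MG against MG, were lost.

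The other acyl-CoA dehydrogenases act on very long (Acadvl), medium (Acadm) and short chains (Acads). All 4 had positive differences with lipid load in both lineages, between 0.17 and 0.59 in MDM and between 0.07 and 0.55 in microglia. Among all loci 49.4% were positive in MDM and 52.6% in microglia. The lowest values were those of Acads, where 100% of the counts are shared with Rpl37rt or Unc119b. Apart from Acadl, only Acadvl passed a test. Acadvl read 25.8, 24.4 and 15.9 CPM in MG against 31.9, 27.5 and 36.4 in LL-MG, with 23.1, 27.6 and 19.2 in MDM and 30.7, 28.0 and 28.4 in LL-MDM. The MG and LL-MG libraries did not overlap, and MG 3 was the lowest (0.55 ± 0.19, edgeR, adjusted p = 0.0434). Without MG 3 the difference was 0.34 and not called. The call was also lost without LL-MG 3 (0.44) and 6 other single libraries, DESeq2 did not make it, and all of the locus's counts are shared with Dlg4 or Dvl2.

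The electron transfer flavoprotein hands electrons from these dehydrogenases to ubiquinone through the oxidoreductase Etfdh. Etfa, its α subunit, has 1 region, at its start. That region gave 44.9, 47.5 and 45.4 CPM in MDM and 64.8, 64.0 and 64.9 in LL-MDM, with 69.6, 60.0 and 55.4 in MG and 77.1, 62.5 and 60.1 in LL-MG. MDM lay below the other 3 groups with no overlap. The gain was 0.49 ± 0.10 in LL-MDM (edgeR, adjusted p = 0.00143) and 0.41 ± 0.10 in MG (edgeR, adjusted p = 0.00172). LL-MG and MG overlapped (0.12 ± 0.11, not called). Tested among regions in place of loci, the same region had an interaction of -0.54 ± 0.18 (edgeR, adjusted p = 0.0423), while the locus test gave -0.37 ± 0.15, not called. Etfdh rose in LL-MDM, from 92.5, 85.0 and 103 CPM in MDM to 143, 113 and 116 (0.38 ± 0.09, edgeR, adjusted p = 0.0042), and read 102 to 109 in MG and 109 to 119 in LL-MG. Its 2 regions are shared with 4930579G24Rik, which starts beside it. Etfb, the β subunit, passed in no comparison, with differences between -0.16 and 0.07.

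Hydration and the second oxidation held the largest of the members' differences in LL-MDM against MDM. Echs1, the short-chain enoyl-CoA hydratase, read 38.0, 43.0 and 39.7 CPM in MDM and 63.9, 61.7 and 73.0 in LL-MDM, with 60.8, 53.3 and 58.5 in MG and 62.9, 60.6 and 57.9 in LL-MG. MDM stood alone at the low end, and the other 3 groups lay close together. The difference was 0.71 ± 0.10 in LL-MDM against MDM (edgeR, adjusted p = 2.29e-05) and 0.50 ± 0.09 in MG against MDM (edgeR, adjusted p = 0.000163). In LL-MG against MG it was 0.08 ± 0.10, and the interaction, -0.63 ± 0.14, passed the test (edgeR, adjusted p = 0.00822). These calls held without any 1 library. Over promoter regions only the interaction was -0.44 and not called (edgeR, adjusted p = 0.113). All counts at the locus are shared with Paox, Fuom or Prap1, so they cannot be credited to Echs1 alone.

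Hadh encodes the 3-hydroxyacyl-CoA dehydrogenase of short and medium chains and shares no counts with a neighbour. It read 22.8, 22.2 and 18.9 CPM in MDM, 27.3, 29.8 and 31.9 in LL-MDM, 32.1, 29.2 and 27.6 in MG, and 38.5, 31.7 and 37.4 in LL-MG. The MDM libraries were again below all others. The gain was 0.48 ± 0.13 in LL-MDM (edgeR, adjusted p = 0.0102) and 0.46 ± 0.12 in MG (edgeR, adjusted p = 0.00578). The LL-MDM call was lost without LL-MDM 2 (0.49) or LL-MDM 3 (0.44).

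Hadha and Hadhb encode the 2 subunits of the mitochondrial trifunctional protein, which carries out the last 3 steps on long chains. The genes run in opposite directions on chromosome 5 with 272 bases between them and share 1 promoter region. The Hadha locus read 55.6, 52.3 and 44.7 CPM in MDM, 41.8, 43.6 and 47.9 in LL-MDM, 60.4, 84.1 and 76.2 in MG, and 52.7, 58.7 and 68.7 in LL-MG. It was higher in microglia in both lipid states, by 0.54 ± 0.11 in MG (edgeR, adjusted p = 0.000486) and by 0.43 ± 0.14 in LL-MG (edgeR, adjusted p = 0.0308). Hadhb, at 36.6 to 43.9 CPM in MDM and 50.5 to 53.5 in MG, differed by 0.36 ± 0.10 (edgeR, adjusted p = 0.00749). Of the counts of Hadhb, which has 2 regions, 91.8% lie in the region shared with Hadha. The gains of Hadha and Hadhb are therefore not independent of each other. At the shared promoter no lineage difference was detected. Its region (chr5:30154780-30155716) read 41.9, 39.4 and 36.4 CPM in MDM and 35.8, 56.2 and 44.3 in MG, and these overlapped (0.23 ± 0.14, not called). Counted over promoter regions only, Hadha was 0.02 higher in MG, and in LL-MG against LL-MDM it was 0.11 lower on the log2 scale, neither called. Without MG 2 and MG 3 the Hadha difference was 0.25 and that of Hadhb 0.33, neither called. The Hadha call in LL-MG against LL-MDM was lost without any 1 of LL-MDM 1, 2 or 3, LL-MG 2 or LL-MG 3 (0.32 to 0.48), and over the gene span without its flank the value was 0.28, not called (edgeR, adjusted p = 0.18). The Hadha sums include regions named for the microglia side and not for the MDM side, and the unshared region of Hadhb is named for every group but MDM. The p-values of both loci may thus rest in part on how regions were called. The thiolases Acaa2 and Acat1, which release acetyl-CoA, passed in no comparison, with differences between -0.25 and 0.17.

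**Figure D2:**
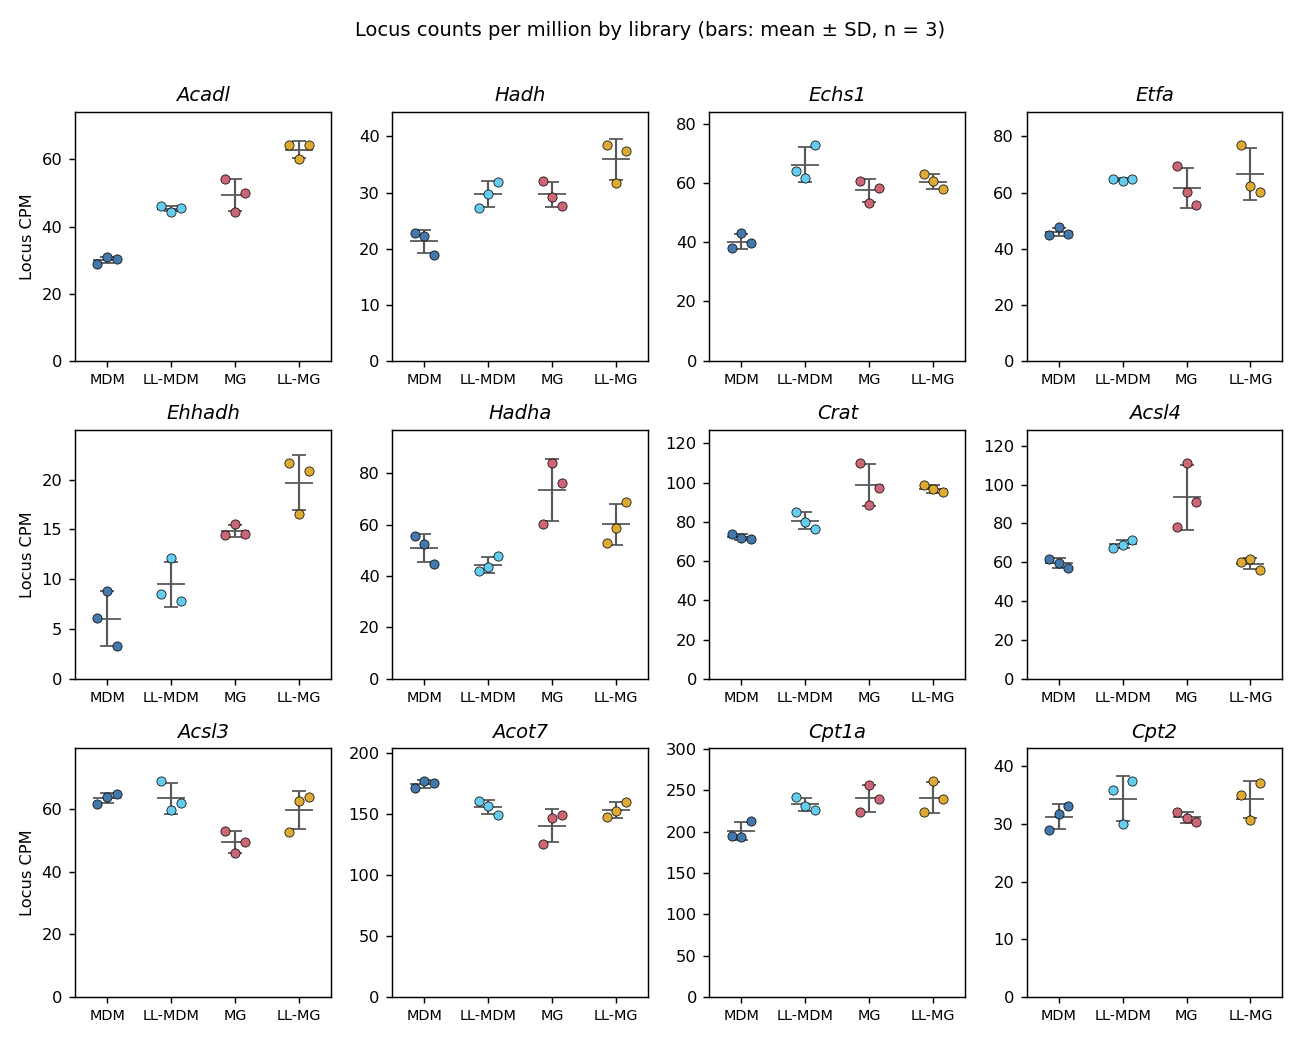
Locus CPM of 12 members in each of the 12 libraries (points), with bars for the mean ± SD of 3 libraries, on axes that start at 0. For Acadl, Hadh, Echs1 and Etfa the 3 MDM libraries lie below all others, for Acsl4 the 3 MG libraries lie above all others, and for Cpt2 the groups overlap.

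Activation held all 4 of the members' losses in MG against MDM. Of the 7 genes for synthetases, transporters with synthetase activity and a thioesterase, 1 was higher and 4 were lower in MG against MDM, with a median of -0.26, where 20.4% of all loci were higher and 20.6% lower. The members' 4 losses became 1 without MG 2 and MG 3, and 1 with libraries thinned to the smallest total. Acsl3, a synthetase of the endoplasmic reticulum and lipid droplets, read 61.7, 64.0 and 64.7 CPM in MDM and 53.0, 45.9 and 49.5 in MG, which did not overlap (-0.37 ± 0.09, edgeR, adjusted p = 0.00208). In LL-MDM it read 69.0, 59.6 and 61.9 CPM and in LL-MG 52.7, 62.5 and 63.7. Acsl5, a synthetase found on mitochondria, was lower in MG by -0.36 ± 0.11, with overlap between the groups (36.8 to 50.5 CPM in MG, 48.5 to 56.1 in MDM). Acot7, the thioesterase that releases free acids from acyl-CoA, read 171 to 177 CPM in MDM and 125 to 149 in MG (-0.30 ± 0.07). The Acsl5 call was lost without MDM 1 (-0.30), MG 2 (-0.24) or MG 3 (-0.28). Promoter regions alone gave -0.05 for Acsl3, not called. Without MG 2 and MG 3 the values were -0.24 for Acsl3 and -0.04 for Acsl5, neither called. In LL-MG against LL-MDM all 7 activation genes lay between -0.24 and 0.05, and the smallest adjusted p was 0.0783, for Acsl1, a synthetase of mitochondria and the endoplasmic reticulum (edgeR).

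Slc27a1, the transporter FATP1, changed in opposite directions in the 2 comparisons that share the MG libraries. It read 141, 148 and 170 CPM in MDM, 173, 163 and 153 in LL-MDM, 151, 112 and 122.8 in MG, and 156, 160 and 166 in LL-MG. MG 2 and MG 3 were the lowest 2 of the 12 libraries. The difference was -0.26 ± 0.09 in MG against MDM (edgeR, adjusted p = 0.0308) and 0.34 ± 0.10 in LL-MG against MG (edgeR, adjusted p = 0.027). Without MG 2 and MG 3 these values were 0.02 and 0.07, neither called, and the calls were lost in 4 and 5 of the 12 omissions of 1 library (MDM 3, LL-MDM 3, MG 2 or MG 3, -0.23 to -0.13, and MG 2, MG 3 or any 1 LL-MG library, 0.23 to 0.36). Of the locus, 92.2% of the counts lie in regions shared with Nxnl1, Pgls or Niban3. From its unshared regions alone, the MG against MDM value was 0.27, not called.

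Acsl4, which prefers arachidonic acid and other polyunsaturated acids and thereby supplies them to membranes, stood apart from the other synthetases. Its locus (chromosome X, 142317993 to 142390802, 12 regions, none shared) read 61.9, 59.8 and 57.1 CPM in MDM, 67.3, 69.1 and 71.7 in LL-MDM, 78.05, 111 and 91.0 in MG, and 60.2, 61.5 and 56.1 in LL-MG. The MG libraries were above all others, and the LL-MG libraries were level with MDM. The difference was 0.67 ± 0.10 in MG against MDM (edgeR, adjusted p = 9.33e-06) and -0.68 ± 0.11 in LL-MG against MG (edgeR, adjusted p = 0.00214). In LL-MDM against MDM it was 0.22 ± 0.10, not called. The interaction was -0.90 ± 0.15 (edgeR, adjusted p = 0.000983). Left out 1 at a time, no library ended these calls (-1.04 to -0.78 for the interaction). With the titles' mouse number as a block, the LL-MG against MG call was lost, while those in MG against MDM and the interaction were kept. With MG 1 as the only MG library, LL-MG against MG was -0.42 and not called.

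In the carnitine shuttle 2 of 5 genes were higher in MG against MDM, where 20.4% of all loci were, and 1 in LL-MG against LL-MDM, where 12.1% were. Cpt1a, the liver-type carnitine palmitoyltransferase that sets the rate of entry into mitochondria, read 195, 193 and 213 CPM in MDM, 242, 232 and 226 in LL-MDM, 224, 257 and 240 in MG, and 223, 262 and 239 in LL-MG. MDM lay below the other groups with no overlap, but only MG against MDM passed (0.27 ± 0.08, edgeR, adjusted p = 0.00886), while LL-MDM against MDM did not (0.21 ± 0.08, edgeR, adjusted p = 0.0568). Without MG 2 and MG 3 the former was 0.18 and not called, and 27.1% of the counts lie in 1 region shared with Tesmin. The LL-MDM difference passed without MDM 3 (0.26), MG 1 (0.22) or MG 2 (0.22). A region 10960 bp into Cpt1a (chr19:3334120-3334402) read 3.90 CPM in MG 1 but 35.7 and 23.1 in MG 2 and MG 3, beside 4.12 to 5.61 in MDM. Promoter regions alone gave 0.01 for Cpt1a in MG against MDM, not called, and 0.32 in LL-MG against MG, which passed. Cpt2, the inner-membrane transferase, has 1 region and read 28.9, 31.8 and 33.2 CPM in MDM, 35.8, 29.9 and 37.5 in LL-MDM, 32.1, 31.1 and 30.2 in MG, and 35.0, 30.8 and 37.1 in LL-MG. All 4 groups overlapped, with differences between -0.00 and 0.15 and 95% intervals from -0.24 to 0.41 over the 4 comparisons. Crat, which moves short acyl groups between carnitine and coenzyme A, read 73.8, 71.9 and 71.1 CPM in MDM, 85.2, 80.0 and 76.6 in LL-MDM, 110, 88.8 and 97.1 in MG, and 98.8, 96.5 and 95.01 in LL-MG. It was higher in microglia in both lipid states (0.43 ± 0.08, edgeR, adjusted p = 0.000166, and 0.28 ± 0.09, edgeR, adjusted p = 0.0395). The latter call was lost in 7 of the 12 omissions of 1 library (0.24 to 0.29) and by DESeq2, and 83.9% of the counts are shared with Ptpa. Cpt1b, the muscle-type enzyme, and the carrier Slc25a20 passed in no comparison.

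Among the genes for unsaturated and peroxisomal substrates, Ehhadh and Eci2 differed by lineage. Ehhadh, the bifunctional enzyme of peroxisomal oxidation, had low levels, at 6.08, 8.81 and 3.25 CPM in MDM, 8.52, 12.1 and 7.82 in LL-MDM, 14.5, 15.5 and 14.6 in MG, and 21.7, 16.6 and 20.9 in LL-MG. No MG or LL-MG library overlapped with an MDM or LL-MDM library. The difference was 1.21 ± 0.25 in MG against MDM (edgeR, adjusted p = 0.000493) and 0.97 ± 0.29 in LL-MG against LL-MDM (edgeR, adjusted p = 0.0192). The smallest library, LL-MDM 1, held 10 counts at this locus, and the latter call was lost without LL-MDM 1 (0.92), LL-MDM 3 (0.82), LL-MG 1 (0.90) or LL-MG 3 (0.93). Eci2, an enoyl-CoA isomerase of peroxisomes and mitochondria, read 37.1, 43.6 and 40.8 CPM in MDM, 46.0, 47.9 and 38.1 in LL-MDM, 56.5, 44.3 and 50.8 in MG, and 54.1, 64.8 and 57.6 in LL-MG. It was higher in MG by 0.30 ± 0.11 (edgeR, adjusted p = 0.0333) and in LL-MG by 0.41 ± 0.13 (edgeR, adjusted p = 0.0274). The MG call was lost without MDM 1 (0.23), MDM 3 (0.30) or MG 3 (0.31), and the LL-MG call without LL-MDM 3 (0.31), LL-MG 2 (0.34) or LL-MG 3 (0.42). Acaa1a, the peroxisomal thiolase, read 109, 103 and 116 CPM in MDM and 140, 115 and 137 in LL-MDM, with overlap (0.24 ± 0.08, edgeR, adjusted p = 0.0454). In MG it read 117, 108 and 108 CPM and in LL-MG 124, 110 and 117. The Acaa1a call was lost in 7 of 12 omissions of 1 library and by DESeq2, and 93.2% of its counts are shared with Myd88. Eci1, Decr1, Ech1 and Acox3 passed in no comparison.

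Sums over a locus mix the promoter with regions farther away, so single regions were tested too. A region entered the table because the authors called it in at least 1 group. Where the table names it for one side of a comparison and not for the other, its difference is given as a description without a test, although the counts of calls include it. Locus sums include such regions as well, so a locus p-value can rest in part on how its regions entered the table. Of the 166 regions 124 passed the filter, and 32 of these overlap a promoter window, taken as the 250 bases before to 50 after an annotated start. In MG against MDM 10 of the 32 promoter regions were higher and 2 lower, where 33.4% of all promoter regions were higher and 5.55% lower. In LL-MDM against MDM 8 were higher and 0 lower (0 at an unadjusted p under 0.05 by edgeR), beside 11.5% and 4.7%. The median of the members' promoter regions was 0.22 in that comparison, and that of all promoter regions 0.05. In LL-MG against MG 0 were higher (2 at an unadjusted p under 0.05 by edgeR) and 2 lower, beside 1.14% and 15.3%, and in LL-MG against LL-MDM 2 were higher and 2 lower, beside 6.65% and 4.35%. For the interaction 0 were higher (0 at an unadjusted p under 0.05 by edgeR) and 3 lower, beside 0.686% and 6.62%. Promoters at large moved with the groups: the median promoter region differed by 0.21 in MG against MDM and by -0.20 in LL-MG against MG. The share of each library's counts in promoter regions was 32.01% to 33.9% in MDM, 33.5% to 35.2% in LL-MDM, 35.0% to 36.8% in MG and 33.1% to 34.0% in LL-MG. Its part in the members' promoter gains was not tested.

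Of the 92 tested regions away from promoters, 26 were higher and 18 lower in MG against MDM, where 25.8% and 27.6% of all regions away from promoters were. LL-MG against LL-MDM gave 14 higher and 8 lower (10.8% and 12.1%), and LL-MDM against MDM gave 12 and 8 (16% and 15.4%). LL-MG against MG gave 2 higher and 7 lower (4.65% and 6.99%), and the interaction gave 0 higher (9 at an unadjusted p under 0.05 by edgeR) and 6 lower (5.1% and 6.3%). Over both classes of region, the 11 calls in LL-MG against MG became 25 without MG 1 and 3 to 4 without MG 2 or any 1 LL-MG library. The 28 calls in LL-MDM against MDM became 16 to 18 without MDM 1, MDM 2, LL-MDM 2 or LL-MDM 3, and the 26 in LL-MG against LL-MDM became 13 to 17 without LL-MDM 2, LL-MDM 3, LL-MG 1 or LL-MG 3. The 9 calls of the interaction became 19 without MG 1 and 4 to 5 without MDM 1, MDM 2, LL-MDM 2, LL-MDM 3 or any 1 LL-MG library.

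**Figure D3:**
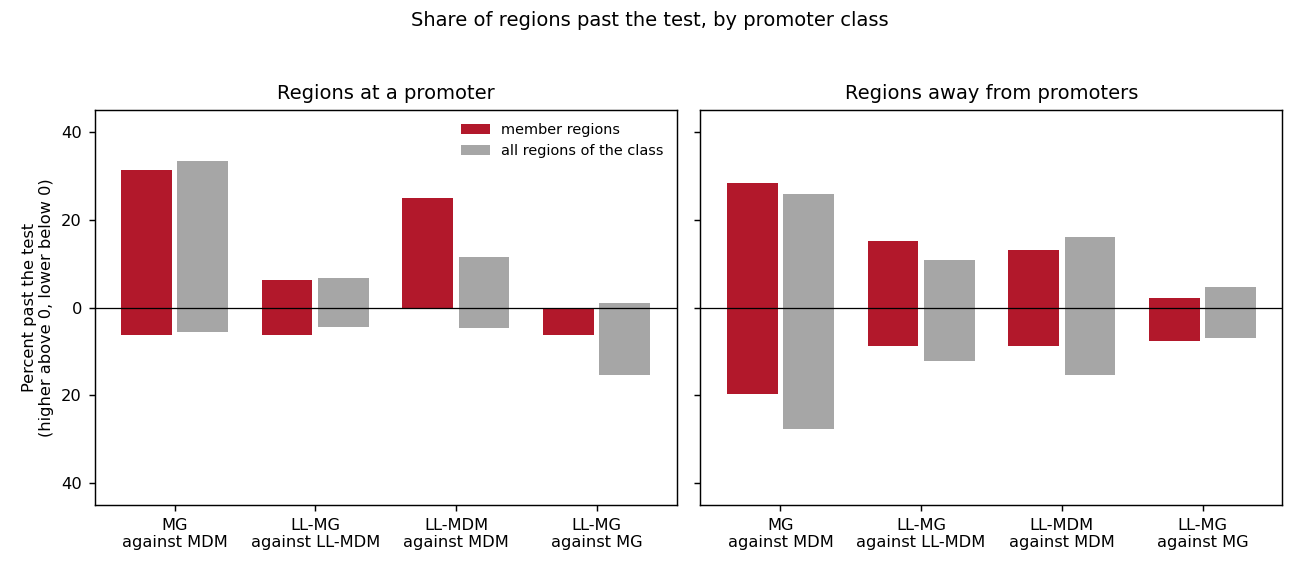
Percent of regions past the edgeR test, higher drawn above 0 and lower below 0, for the 32 members' promoter regions (left) and 92 other regions (right) beside all regions of the same class. The left panel shows 8 of 32 member promoters higher in LL-MDM against MDM beside 11.5% of all, and 0 of 32 higher in LL-MG against MG beside 1.14%.

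The promoters of 4 of the 6 loci that gained in LL-MDM, and that of Acsl4, which was higher in MG, are shown because called differences lay at these loci. The 2 not shown are those of Etfdh and Acaa1a. They are RefSeq sequences of GRCm38.p6 (the mm10 assembly), all on the minus strand and written from 250 bases before to 50 after the start, 5′ to 3′. Capitals mark the GC box GGGCGG and the nuclear receptor half-site AGGTCA on either strand.
Acadl, chr1:66863260-66863559: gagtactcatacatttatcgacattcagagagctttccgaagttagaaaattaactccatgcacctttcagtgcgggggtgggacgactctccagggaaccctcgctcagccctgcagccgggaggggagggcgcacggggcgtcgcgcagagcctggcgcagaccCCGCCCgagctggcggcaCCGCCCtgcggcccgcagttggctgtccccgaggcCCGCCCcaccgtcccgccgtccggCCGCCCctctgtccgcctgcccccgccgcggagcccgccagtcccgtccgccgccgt
Etfa, chr9:55512194-55512493: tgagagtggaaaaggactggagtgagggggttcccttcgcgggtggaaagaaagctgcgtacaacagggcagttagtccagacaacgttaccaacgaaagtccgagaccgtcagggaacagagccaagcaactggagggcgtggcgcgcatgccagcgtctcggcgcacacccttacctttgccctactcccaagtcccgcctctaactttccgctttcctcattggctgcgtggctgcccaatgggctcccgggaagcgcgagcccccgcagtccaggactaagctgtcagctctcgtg
Hadh, chr3:131272052-131272351: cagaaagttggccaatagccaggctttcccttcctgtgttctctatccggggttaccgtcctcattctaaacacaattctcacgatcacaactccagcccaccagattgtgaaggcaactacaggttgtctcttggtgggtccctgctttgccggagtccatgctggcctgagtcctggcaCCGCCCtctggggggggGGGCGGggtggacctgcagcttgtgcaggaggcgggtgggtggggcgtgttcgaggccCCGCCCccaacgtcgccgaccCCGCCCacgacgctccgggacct
Echs1, chr7:140116372-140116671: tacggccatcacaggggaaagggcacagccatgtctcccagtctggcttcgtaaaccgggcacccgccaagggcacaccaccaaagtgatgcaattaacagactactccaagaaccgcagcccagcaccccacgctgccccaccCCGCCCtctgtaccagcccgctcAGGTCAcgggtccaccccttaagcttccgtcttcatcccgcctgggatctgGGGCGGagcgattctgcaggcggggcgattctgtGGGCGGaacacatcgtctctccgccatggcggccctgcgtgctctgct
Acsl4, chrX:142390486-142390785: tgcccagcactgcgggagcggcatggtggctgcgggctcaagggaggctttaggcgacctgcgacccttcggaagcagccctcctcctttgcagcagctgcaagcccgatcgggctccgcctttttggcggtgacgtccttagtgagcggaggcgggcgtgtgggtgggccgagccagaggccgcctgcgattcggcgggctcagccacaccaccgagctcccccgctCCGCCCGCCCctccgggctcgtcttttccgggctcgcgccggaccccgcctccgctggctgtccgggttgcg

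The Acadl window is 70.3% G and C and holds GC boxes but no half-site, whereas the Echs1 window holds both and the Etfa window neither. A promoter sequence was at hand for 27 members. A member was counted if any of its windows held the motif, and Acsl1 and Slc27a1 have more than 1, whereas the background was counted per window. The GC box occurred in 85.2% of these, beside 46.6% of 21005 promoters and 67.3% of the 11265 promoters that overlap a region. The half-site AGGTCA occurred in 14.8% of the members, beside 14.7% and 11.1%. CCAAT was in 44.4% of members (38.1% of all promoters), TGACG in 22.2% (23.8%), CCGGAAG in 7.41% (11.7%), TGCGCA in 14.8% (9.8%) and TGANTCA in 3.7% (6.99%). The E-box TCACGTG was found in 0 of the 27 (4.43% of all promoters), as was the ETS core GAGGAAG (13.3%). The extended half-site TCAAGGTCA was in 0 (0.314%), and so were direct repeats of AGGTCA spaced by 1 base (0.0476%) or by 4 bases (0% of all promoters). Both strands were searched, the extended half-site and the repeats contain AGGTCA, and a match is only a match of letters in these windows.

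At the Acadl start the region chr1:66862713-66863511 read 19.8, 23.3 and 24.2 CPM in MDM, 32.2, 37.8 and 41.5 in LL-MDM, 48.5, 43.7 and 45.5 in MG, and 57.95, 50.3 and 57.6 in LL-MG. The order of the groups was that of the whole locus. The difference was 1.03 ± 0.13 in MG against MDM (edgeR, adjusted p = 3.6e-08). A second region 21174 bp into the gene (chr1:66842054-66842216) read 0.628, 0.415 and 0 CPM in MDM and 6.77, 1.60 and 1.31 in LL-MDM, 3.19, 3.28 and 3.73 in MG, and 1.73, 4.04 and 3.12 in LL-MG. The table names it for every group but MDM, so its low MDM values are a description.

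At Acsl4 the promoter and regions around it read lower in LL-MG than in MG. The promoter region (chrX:142390238-142390918) read 27.1, 28.0 and 31.4 CPM in MDM, 33.9, 33.8 and 31.7 in LL-MDM, 44.6, 71.6 and 48.3 in MG, and 38.9, 28.3 and 27.4 in LL-MG. A narrow region upstream, at -528 bp (chrX:142391017-142391109), named for MG only, read 0.908, 1.09 and 0.817 CPM in MDM, 0.846, 1.73 and 1.963 in LL-MDM, 4.25, 13.3 and 7.00 in MG, and 1.73, 1.35 and 1.39 in LL-MG. MG 2 was the highest library in both, and the MG libraries lay above all others. The upstream region entered the table through MG, so no test of it is given. A region 917 bp into the gene, named for the MDM groups only, fell by 1.18 ± 0.32 in LL-MG against MG (edgeR, adjusted p = 0.0161), a call lost without MG 2 (-0.92), LL-MG 1 (-0.91) or LL-MG 3 (-0.98). A region at 13020 bp, named for every group but LL-MG, read 1.42, 3.77 and 3.03 CPM in MG and 0, 0.899 and 1.04 in LL-MG.

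**Figure D4:**
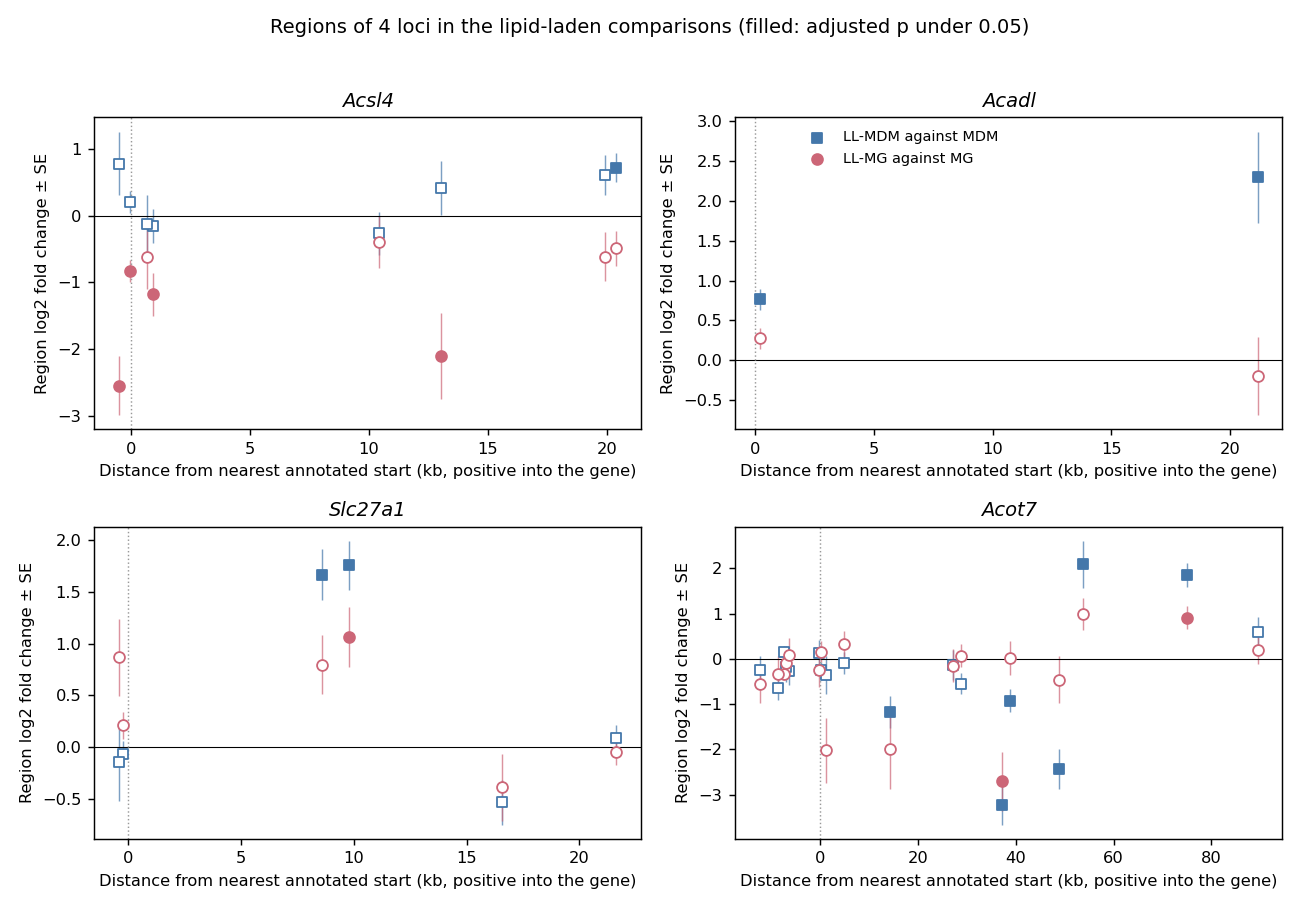
Log2 fold change ± standard error of the tested regions of Acsl4, Acadl, Slc27a1 and Acot7 with lipid load in MDM (squares) and in microglia (circles), against distance from the nearest annotated start in kb, filled where past the edgeR test. Where a region is named for a single side of a comparison, its fill is a description and no support. The Acsl4 regions near the start lie below 0 in microglia (-2.55 at the lowest, in a region named for MG only), whereas Acot7 holds regions on both sides of 0 within MDM (-3.22, in a region named for MDM and MG only, and 1.85).

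Regions inside the trifunctional protein genes had their highest levels in microglia. A region 17040 bp into Hadhb (chr5:30172122-30172465) read 0.419, 0.156 and 0.327 CPM in MDM, 1.69, 3.33 and 3.27 in LL-MDM, 14.9, 5.24 and 11.2 in MG, and 10.4, 11.2 and 12.1 in LL-MG. Each group lay above MDM with no overlap, and both microglia groups lay above LL-MDM. The table names it for every group but MDM. A region 22620 bp into Hadha (chr5:30132257-30132464), named for the microglia groups only, read 0.364 to 0.490 CPM in MDM, 0.654 to 1.69 in LL-MDM, 3.54 to 11.3 in MG and 2.70 to 5.62 in LL-MG. In the flank of Hadha, the region chr5:30114298-30114654, shared with Garem2, was 2.17 ± 0.23 higher in MG than in MDM. The table names it for every group but LL-MDM, where it read 1.963 to 3.06 CPM beside 6.49 to 10.8 in LL-MG.

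Single regions could differ by more than their whole locus, and at Acot7 they lay on both sides of 0. Slc27a1 in LL-MDM (0.09 over the locus) gained 2 intragenic regions, chr8:71580279-71580487 by 1.76 ± 0.24 and chr8:71579046-71579351 by 1.67 ± 0.25. The former read 3.42, 3.01 and 3.27 CPM in MDM, 11.0, 11.4 and 10.1 in LL-MDM, 3.90, 3.28 and 3.96 in MG, and 5.62, 8.99 and 8.325 in LL-MG. With libraries thinned to the smallest total its LL-MDM difference was 1.11 and not called (edgeR, adjusted p = 0.116). It rose with lipid load in both lineages (1.06 ± 0.29 in microglia, edgeR, adjusted p = 0.0176), although the microglial call was lost without MG 2 (0.98), LL-MG 2 (0.98) or LL-MG 3 (1.06). Of 22 regions at Acot7, one (chr4:152222629-152222901) read 6.49, 9.19 and 8.50 CPM in MDM and 0.846, 0.931 and 0.654 in LL-MDM. The table names it for MDM and MG only, and it read 1.06, 5.57 and 3.03 CPM in MG and 0, 0.899 and 0.694 in LL-MG. Another (chr4:152260493-152260830) read 2.37, 3.43 and 5.55 CPM in MDM and 13.5, 11.3 and 14.4 in LL-MDM, and rose by 1.85 ± 0.26. The region chr4:152239299-152239465, named for LL-MG only, read 0.163 to 0.489 CPM in MDM, 1.31 to 2.54 in LL-MDM, 2.13 to 6.02 in MG and 6.24 to 7.64 in LL-MG. At the Echs1 locus a region shared with Paox (chr7:140112085-140112313) rose by 1.44 ± 0.22 in LL-MDM, more than the promoter region (0.48). Regions of Acsl1 (chr8:46508638-46508791, -2.47 ± 0.65 in LL-MG against MG) and Acsl5 (chr19:55251244-55251359, 2.22 ± 0.55 in LL-MG against LL-MDM) also passed, from levels of 6.39 CPM or less. The Acsl1 call was lost without any 1 of the 3 LL-MG libraries (-2.61 to -2.23). Beside Etfdh, chr3:79629427-79629643, named for every group but LL-MDM, read 3.39 to 7.20 CPM in LL-MDM and at least 13.9 in each LL-MG library.

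Genes of the same pathway outside the 32 were counted from lists by role, beside 20.4% of all loci higher and 20.6% lower in MG against MDM, and 11.7% and 12.2% in LL-MDM against MDM. Among 21 tested regulators 7 were higher and 5 lower in MG against MDM, and 5 higher and 4 lower in LL-MDM against MDM (33.3% and 23.8%, then 23.8% and 19%). Rxra, the partner of PPARs, read 77.9 to 82.9 CPM in MDM, 138 to 150 in LL-MDM, 138 to 192 in MG and 177 to 217 in LL-MG, and rose with lipid load by 0.83 ± 0.10 in MDM (edgeR, adjusted p = 1.05e-05) and by 0.30 ± 0.10 in microglia (edgeR, adjusted p = 0.0472). Ppard rose with lipid load in both lineages (0.36 ± 0.08 in MDM, 0.43 ± 0.08 in microglia). Ppargc1a, which encodes PGC-1α, fell by 0.89 ± 0.14 in LL-MDM and was lower by -1.24 ± 0.13 in MG, whereas Ppargc1b, for PGC-1β, rose with lipid load in both lineages (0.39 ± 0.10 in MDM, 0.41 ± 0.11 in microglia). Among 6 genes for carnitine and malonyl-CoA 1 was higher and 1 lower in MG against MDM (16.7% each), and 2 higher and 0 lower in LL-MDM against MDM (33.3% and 0%). Of these, Mlycd read 136 to 159 CPM in MDM and less in MG, 109 to 116. The peroxisomal carnitine transferase Crot read 20.8 to 22.1 CPM in MDM, 31.6 to 39.2 in LL-MDM, 38.5 to 47.0 in MG and 46.9 to 54.5 in LL-MG. Crot rose by 0.67 ± 0.12 in LL-MDM and was 0.98 ± 0.11 higher in MG. Among 17 other peroxisomal genes 4 were higher and 3 lower in MG against MDM and 5 higher and 2 lower in LL-MDM against MDM (23.5% and 17.6%, then 29.4% and 11.8%). There Acaa1b, a thiolase closely alike in sequence to Acaa1a, was 2.03 ± 0.33 higher in MG, and Scp2, the sterol carrier with thiolase activity, was lower by -1.06 ± 0.09. Among 18 further activation, transport and thioesterase genes 4 were higher and 7 lower in MG (22.2% and 38.9%), with the transporter Slc27a2 at -1.42 ± 0.21. Among 15 further mitochondrial genes 1 was higher and 2 lower in MG, and 1 higher and 2 lower in LL-MDM (6.67% and 13.3% in each).

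Other markers moved with the same groups. The summed level of 6 microglia markers was 151 to 161 CPM in MDM, 207 to 220 in LL-MDM, 204 to 363 in MG and 337 to 401 in LL-MG. Of these 6, 3 rose in LL-MDM, among them Sall1 (3.295 ± 0.38) and Fcrls (1.05), the other being Tmem119. The 6 dendritic cell markers summed to 610 to 679 CPM in MDM, 407 to 441 in LL-MDM, 387 to 427 in MG and 432.5 to 469.6 in LL-MG, and 5 of them fell in LL-MDM. The 6 monocyte-derived markers summed to 737 to 802 CPM in MDM and 538 to 580 in LL-MDM. Acadl, Echs1, Etfa and Hadh, lowest in MDM, were thus lowest where dendritic and monocyte-derived markers were highest. Other lists were highest in MDM too: endothelium (314 to 344 CPM), T and NK cells (118 to 129) and, by mean, oligodendrocytes and progenitors (364). Those of B cells and neutrophils overlapped with LL-MDM, and those of microglia, astrocytes and neurons were not highest in MDM. The part of any of these markers in the gains was not tested. In LL-MG, where Acsl4 fell, 2 of the 5 astrocyte markers with a region were higher than in MG, and their sum was 227 to 244 CPM beside 150 to 194. Of the 7 oligodendrocyte and progenitor markers tested 2 were higher, Cspg4 (0.79) and Sox10 (1.73), and the whole list summed to 330 to 357 CPM beside 294 to 315. Ccr2 fell by 2.56, to 3.10, 5.68 and 5.76 CPM, and the T cell gene Cd3d fell by 0.95, from 29.3, 58.0 and 37.1 CPM in MG to 24.8, 21.8 and 20.5. Of the 6 monocyte-derived markers 1 was lower in LL-MG than in MG, and 4 had positive differences. They summed to 293.5 to 376.7 CPM in MG and 334.5 to 365.8 in LL-MG. Of the 4 T and NK cell markers tested 1 was lower and 2 had positive differences. That list summed to 98.9 to 117 CPM in MG and 87.1 to 93.5 in LL-MG. Among all loci 8.64% were lower. MG 2 was the highest MG library and MG 1 the lowest for Acsl4, Ccr2 and Cd3d alike. The summed microglia markers ran the other way, with 363 CPM in MG 1, 291 in MG 3 and 204 in MG 2, the last below all LL-MDM libraries. The part of these markers in the fall of Acsl4 was not tested.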

How the data were processed

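The deposited table holds read counts per called ATAC-seq region in 12 libraries, 117835 regions with a median width of 179 bp. Per the submitters' processing notes, the tools named were BWA 0.7.17-r1188, SAMtools 1.10, Picard 2.12.0 and deepTools 3.5.1 with the mm10 build, and neither caller nor thresholds are stated there. The authors' counts were used as deposited, with no correction for GC content or region width. Regions named in the table for a group are those the authors called there. Regions were assigned to each protein-coding gene whose span or 5000 bp flank they overlap (81215 regions, 11090 of them to more than 1 gene), so counts in shared regions enter each gene.

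Locus and region counts were each fitted with edgeR 4.0.16 in R 4.3.3 (TMM, low-count filter, robust quasi-likelihood) in 1 model of the 4 groups, with Benjamini-Hochberg adjustment over all 15540 loci or 77737 regions. DESeq2 1.42.0 was an alternative. The script was tested on simulated counts with known changes. Totals of 1162969 to 18938222 counts set the precision, which is lowest for LL-MDM 1. Per-library values are given for up to 8 members a comparison that passed the test, in order of p, and for Cpt1a and Cpt2. Single regions were named where they passed with a log2 difference of at least 1, up to 6 a comparison, and other pathway genes in order of p, up to 4 a list, while the further regions and genes named were chosen after their values were seen. The members and lists were chosen with earlier results of these data known. Alternatives were other scalings, no filter, thinned libraries, other locus definitions, groups by title, a mouse block, and libraries left out.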

Additional observations from a re-analysis of the deposited data

Results flagged for a closer look

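The lipid-load difference of the Acsl4 locus was lower in microglia than in MDM by -0.90 on the log2 scale in the interaction test (edgeR, adjusted p = 0.000983), with 0.22 ± 0.10 in MDM and -0.68 ± 0.11 in microglia. It draws attention because the difference between the lineages itself passed the test. For the Echs1 locus the same test gave -0.63 (edgeR, adjusted p = 0.00822), with 0.71 ± 0.10 in MDM and 0.08 ± 0.10 in microglia. Over promoter regions only, the Echs1 value was -0.44 and not called (edgeR, adjusted p = 0.113). The causes of both were not tested.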

How the results depend on the processing

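Of the 32 calls of members in the 5 comparisons, 32 were kept with RLE scaling, 30 with total-count scaling, 27 by DESeq2, 32 without the filter, 30 without the flank, 23 of 27 from regions of 1 gene only, 22 of 30 from promoter regions only (chosen after seeing the data), 22 without MG 2 and MG 3, 18 with thinned libraries and 0 by title. With the titles' mouse number as a replicate block (also chosen after seeing the data), 21 calls were kept with groups by library name and 1 with groups by title. The number is not established as a pairing: with groups by library name, deviations of same-numbered libraries of different groups correlated at a median of 0.0087 over 15183 loci, and of others at -0.0062. By library name, only 1 of the 3 numbers holds both lipid states.

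Thinned to the smallest total, fewer reads gave 7 members higher and 1 lower in MG against MDM, 3 higher in LL-MDM against MDM and 0 higher in LL-MG against MG. Called regions then numbered 17 in MG against MDM, 9 in LL-MG against LL-MDM, 9 in LL-MDM against MDM, 4 in LL-MG against MG and 0 in the interaction. By title there were 0 higher and 0 lower in MG against MDM and in LL-MG against MG, 0 higher in LL-MG against LL-MDM, 1 higher in LL-MDM against MDM and 0 lower in the interaction. Promoter regions only gave 6 higher in MG against MDM, 2 in LL-MG against LL-MDM, 5 in LL-MG against MG, and 1 lower in the interaction. Without MG 2 and MG 3 there was 1 lower in MG against MDM and in LL-MG against LL-MDM, 11 were higher in LL-MDM against MDM, 0 were higher and 0 lower in LL-MG against MG, and 1 was higher in the interaction. Regions of 1 gene only gave 1 lower in LL-MG against LL-MDM. With the block and groups by library name, 2 were higher in LL-MDM against MDM, and 0 higher and 0 lower in LL-MG against MG. The LL-MDM against MDM calls lost there were those of Acadl, Etfdh, Hadh and Acaa1a. With the block and groups by title, 0 were higher and 0 lower in MG against MDM and in LL-MG against MG, 0 higher in LL-MG against LL-MDM, and 0 lower in the interaction. The causes were not tested.

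Directions turned by title for Acsl3 (0.059) and Hadhb (-0.0092) in MG against MDM, Crat (-0.11) and Eci2 (-0.15) in LL-MG against LL-MDM, Acaa1a (-0.020) in LL-MDM against MDM, and Acsl4 (0.24) and Slc27a1 (-0.13) in LL-MG against MG. With the block added, groups by title gave 0.062 for Acsl3, -0.026 for Hadhb and -0.0081 for Hadha in MG against MDM, -0.11 for Crat, -0.15 for Eci2, -0.019 for Acaa1a, 0.23 for Acsl4 and -0.14 for Slc27a1 in the comparisons named before. Slc27a1 in MG against MDM turned to 0.27 from regions of 1 gene only and to 0.017 without MG 2 and MG 3, and Hadha in LL-MG against LL-MDM to -0.11 from promoter regions only.

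Leaving out 1 library at a time gave 10 to 13 members higher and 2 to 5 lower in MG against MDM, 1 to 5 and 0 to 1 in LL-MG against LL-MDM, 4 to 10 and 0 to 0 in LL-MDM against MDM, 0 to 6 and 1 to 3 in LL-MG against MG, and 0 to 2 and 2 to 3 in the interaction. Called regions ranged over 42 to 63, 13 to 29, 16 to 39, 3 to 25 and 4 to 19 in the same order. Of the 32 calls, 20 held in every such omission.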
